A study of Mus musculus with 4 samples.

Results

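The regions described here were bound by PU.1 in wild-type B cells and in B cells without miR-155, and had no PU.1 peak in B cells of the PU.1 knock-in. Peaks of the 3 genotypes that overlapped by at least 1 bp were joined into regions, on chromosomes 1 to 19. A region was kept when it held a wild-type peak and a miR-155 knockout peak and no knock-in peak. This rule gave 232 regions of the 4676 formed on these chromosomes. The presence or absence of a peak in each list chose the regions, so it is not a result about them.

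PU.1, the product of Spi1, belongs to the ETS family of transcription factors and binds purine-rich DNA with a GGAA core. It is needed early in the development of myeloid and B cells, and its level changes when a mature B cell is activated and becomes an antibody-secreting plasma cell. miR-155 is a microRNA induced in activated B cells that pairs through its seed with a target site in the PU.1 messenger RNA and lowers PU.1. Its absence and the loss of its site in the PU.1 gene are both ways of removing that repression.

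The mature strands of miR-155 are shown because the microRNA is absent in one mutant and its target site is altered in the other. Capitals mark the seed, bases 2 to 8. The sequences are from RefSeq, build GRCm38.p6, chromosome 16, plus strand; the 5p strand is the one that acts on PU.1.
mmu-miR-155-5p: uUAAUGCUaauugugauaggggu
mmu-miR-155-3p: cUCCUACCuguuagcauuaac

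Mouse splenic B cells were isolated by negative selection, cultured for 4 days with 5 ug/ml lipopolysaccharide and 10 ng/ml interleukin-4, and fixed with 2% formaldehyde before chromatin immunoprecipitation and sequencing. All 3 genotypes had this treatment: wild type, the knock-in written PU.1[155-/155-], in which the miR-155 site of the PU.1 gene is changed, and the knockout written miR-155[-/-]. Each had 1 PU.1 immunoprecipitation, whose title calls it a mix without saying what was mixed, and 1 input DNA sample was not analysed here. The labels give no strain, age or number of mice. No difference between genotypes can be set against a spread between replicates, so no p-value is given. The files hold peaks and no read counts, so the read depth is unknown and an absent peak can be an unbound site or one below the calling threshold. Peaks were not placed in genes, so B cell identity could not be checked against marker genes. The lists held 1132 wild-type, 2094 knock-in and 4153 knockout peaks.

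Of the 1044 regions with both a wild-type and a knockout peak, the 232 without a knock-in peak made up 22.2% (exact 95% binomial interval 19.7 to 24.9), and the other 812 were called in all 3 genotypes. All intervals given here cover counting error over regions only. Among regions with a wild-type and no knockout peak, 50 of 70 lacked a knock-in peak (71.4%, 59.4 to 81.6). Among regions with a knockout and no wild-type peak, 2332 of 3050 lacked one (76.5%, 74.9 to 78). In these lists, a region found in both other genotypes was found in the knock-in more often than a region found in only 1 of them.

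The opposite kind of region, with a wild-type and a knock-in peak and no knockout peak, was rarer. There were 20 of these among 832 regions (2.4%, exact 95% interval 1.47 to 3.69). The knockout list is longer than the knock-in list, and with the knockout list held to its 2094 highest-scoring peaks the numbers were 81 of 832 (9.74%, 7.81 to 12). Regions with wild-type and knockout peaks and no knock-in peak then numbered 161 of 912 (17.7%, 15.2 to 20.3). These shares come from the calls that the rule used, in single libraries, and were not tested against each other.

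By position, the smallest gaps and overlaps were as follows. The closest knock-in peak to any of the 232 regions was 1048 bp away, and the smallest overlap between their wild-type and knockout peaks was 102 bp, at chr5:88990310-88990499, followed by 121 bp at chr5:122735730-122735957 and 131 bp at chr11:85931054-85931297. In regions called in all 3 genotypes, the smallest overlap of a knock-in peak was 150 bp, at chr3:126454243-126454635. It was followed by 152 bp at chr9:45822417-45822722 and 177 bp at chr1:16678281-16678629. The overlaps of 121 and 131 bp covered the whole wild-type peak, and that of 150 bp the whole knock-in peak. None of these overlaps was near the 1 bp limit of the rule. Under a reciprocal overlap of 50% in place of 1 bp, 11 of the 232 regions no longer met the rule. By score many were near the lower end of the wild-type list. Its lowest-scoring 10% held 40 of the 232 (17.2%, exact 95% interval 12.6 to 22.7) and 49 of the 812 regions called in all 3 genotypes (6.03%, 4.5 to 7.9). Few were near the lower end of the knockout list. Its lowest-scoring 10% held 3 of the 232 (1.29%, 0.267 to 3.73) and 7 of the 812 (0.862%, 0.347 to 1.77). Positions are on mm9 and counted from 1.

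Wild-type and knockout peaks coincided closely in the 232 regions, each of which held 1 peak of either list. Their centres were a median of 37.5 bp apart (interquartile range 18 to 58), and 219 of 232 pairs lay within 100 bp (94.4%, exact 95% interval 90.6 to 97). In the 812 regions called in all 3 genotypes the centres were a median of 32 bp apart, and 94.6% lay within 100 bp (92.8 to 96). These 2 intervals overlap. The overlap covered a median of 85.7% of the wild-type peak, against 91.9% in the regions called in all 3 genotypes.

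The regions were 186 to 564 bp wide, and their median width was 353 bp (interquartile range 302 to 404). Regions called in all 3 genotypes had a median of 426 bp, but these join 3 peaks and not 2. Single peaks differed less: the wild-type peak had a median width of 298.5 bp, against 321.5 bp in the regions called in all 3, and the knockout peak 293.5 bp against 337.5 bp. The knockout peak was the wider one in 116 of 232 regions (50%, exact 95% interval 43.4 to 56.6) and in 467 of the 812 regions called in all 3 (57.5%, 54 to 60.9). The widest regions lay at chr14:122337691-122338254, chr6:70685398-70685958 and chr11:32465053-32465605.

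The authors' deposited score was used to rank peaks within a list: the percentile of a peak is the percent of its own list with the same or a lower score. In the wild-type list the 232 regions ranged from percentile 0.088 to 85.1, with a median of 30.9 (interquartile range 14.3 to 51.6). The 812 regions called in all 3 genotypes had a median of 60.6, the 50 called in the wild type alone 21.2, and the 20 called in the wild type and the knock-in 23.1. The regions without a knock-in peak stood low in the wild-type list, between regions shared by all and regions of the wild type alone. None of the 232 was in the highest-scoring 10% of the wild-type list (0%, exact 95% interval 0 to 1.58), against 113 of the 812. The higher-scoring 50% of the wild-type list held 60 of the 232 (25.9%, 20.4 to 32), against 493 of the 812 (60.7%, 57.3 to 64.1).

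In the knockout list the same regions stood higher. Their knockout percentiles ranged from 2.84 to 97.8, with a median of 63.1 (interquartile range 45 to 79.7). Regions shared by the mutants and absent from the wild type had a median of 61.1, regions called in all 3 had 86.9, and regions called in the knockout alone had 33.6. By knockout rank, the 232 regions were thus close to those called in both mutants, which do have a knock-in peak. The higher-scoring 50% of the knockout list held 158 of the 232 (68.1%, 61.7 to 74.1), and the highest-scoring 10% held 16 (6.9%, 3.99 to 11). Both shares were below those of the regions called in all 3: 750 of 812 (92.4%, 90.3 to 94.1) and 344 of 812 (42.4%, 38.9 to 45.8). Rank and being called are linked in every list, so these comparisons describe the lists and were not tested.

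**Figure D1:**
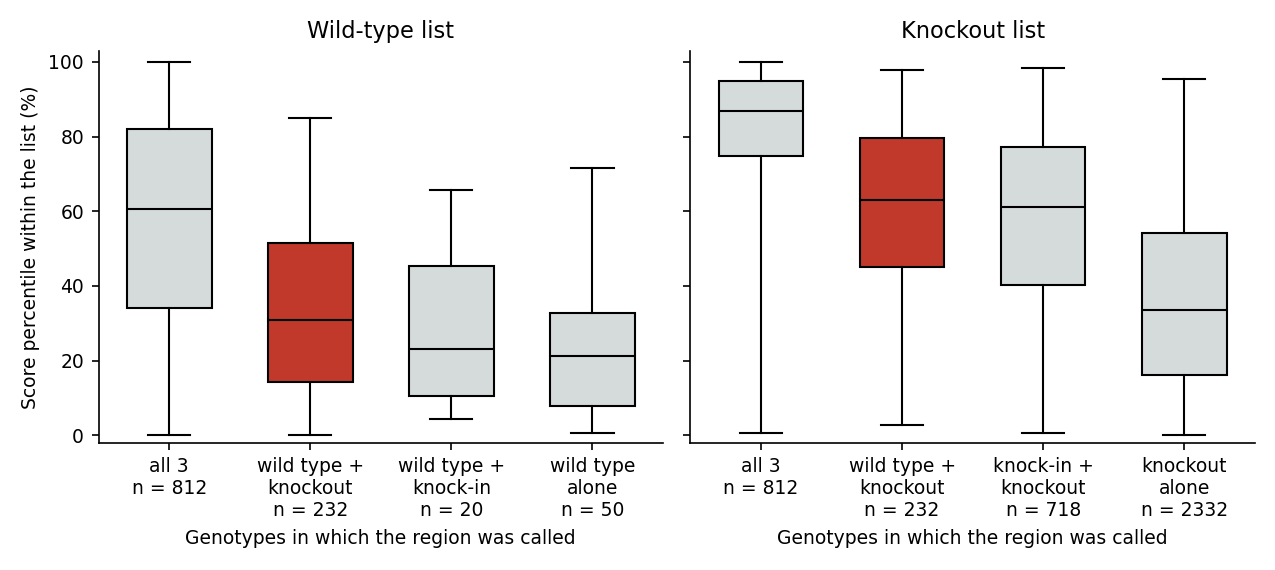
Score percentile within the wild-type list (left) and the knockout list (right) for regions grouped by the genotypes in which they were called. Boxes span the quartiles with the median as a line, whiskers reach the lowest and highest value, and the red boxes, with medians of 30.9 and 63.1, are the 232 regions without a knock-in peak.

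The share of regions without a knock-in peak was lower in the higher-scoring wild-type classes. Regions with wild-type and knockout peaks were divided into 10 classes by their wild-type percentile. In the lowest-scoring class 40 of 89 lacked a knock-in peak (44.9%, exact 95% interval 34.4 to 55.9). In the sixth class this was 25 of 108 (23.1%, 15.6 to 32.2), in the ninth 5 of 112 (4.46%, 1.47 to 10.1), and in the highest 0 of 113 (0%, 0 to 3.21). By knockout percentile the share was 76.2% in the third class (16 of 21, 52.8 to 91.8), 39% in the seventh (39 of 100, 29.4 to 49.3) and 4.44% in the highest (16 of 360, 2.56 to 7.12). The lowest knockout classes held few regions: 3 of 10 and 8 of 22 lacked a knock-in peak there.

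**Figure D2:**
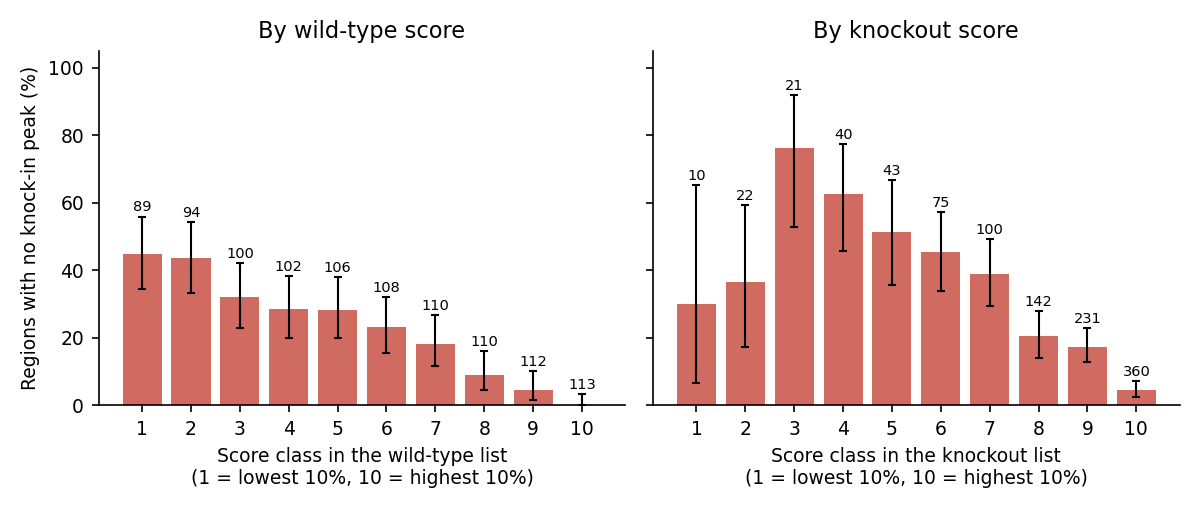
Percent of regions with wild-type and knockout peaks that had no knock-in peak, by score class in the wild-type list (left) and the knockout list (right). Bars show the share, error bars the exact 95% binomial interval and the numbers above them the regions in each class; the share is 44.9% in the lowest wild-type class and 0% in the highest.

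The share also differed with the combination of both ranks. Of the regions above percentile 50 in both lists, 47 of 521 lacked a knock-in peak (9.02%, exact 95% interval 6.7 to 11.8), and of those above percentile 75 in both, 6 of 263 did (2.28%, 0.842 to 4.9). Of those at 50 or below in both, 61 of 104 lacked one (58.7%, 48.6 to 68.2). Regions above 50 in the knockout list only, which were 111 of the 232, lacked one in 28.7% of 387 cases (24.2 to 33.5). Regions above 50 in the wild-type list only were few, and 13 of 32 lacked one (40.6%, 23.7 to 59.4). The regions without a knock-in peak were therefore not all weakly ranked, but the leading ranks of both lists held few of them. Across the 232 regions the wild-type and knockout percentiles had a Spearman rho of 0.28, and across the 812 called in all 3 it was 0.55. The interquartile range of the members was narrower in the wild-type list (14.3 to 51.6 against 34 to 82.1 in the 812). In the knockout list it was wider (45 to 79.7 against 74.9 to 94.8). Both peaks of a region share its sequence, and the difference in rho was not tested, so these are descriptions.

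**Figure D3:**
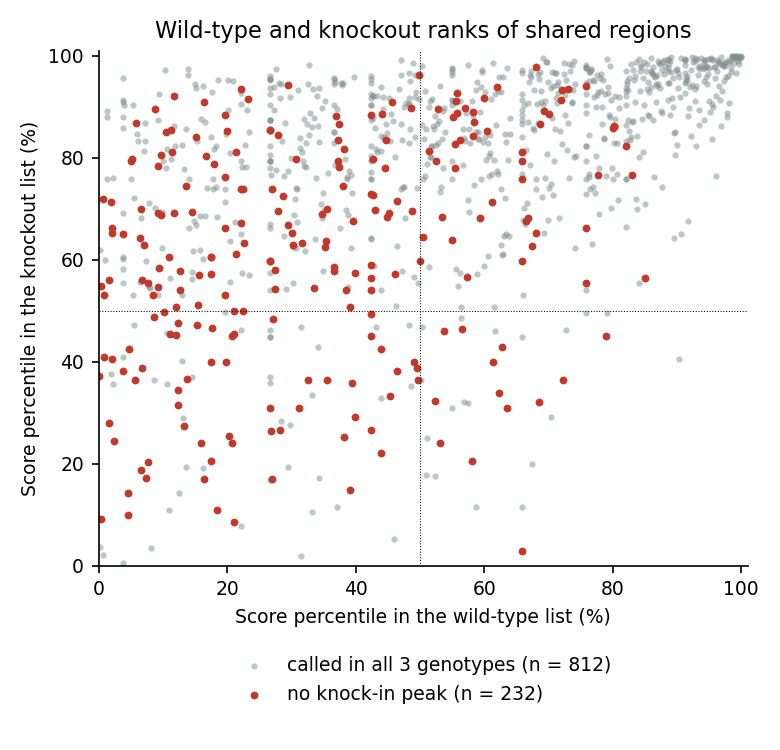
Score percentile in the wild-type list (x axis) against the knockout list (y axis) for each region with both peaks: 232 without a knock-in peak (red) and 812 called in all 3 genotypes (grey). Dotted lines mark percentile 50. Of the red points, 111 lie above the horizontal line and on or to the left of the vertical line. None lies above percentile 90 in both lists.

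Where a knock-in peak was called, its rank was lower in the lower wild-type classes. The median knock-in percentile was 94.7 in the highest wild-type class, 84.6 in the ninth, 76.4 in the seventh, 66.3 in the fifth and 56.1 in the lowest, where 49 regions had a knock-in peak. Regions called in all 3 genotypes whose wild-type and knockout percentiles both lay within the interquartile ranges of the 232 numbered 104. Their knock-in percentiles had a median of 58.8 (interquartile range 38.9 to 74.4), and 16 of the 104 were in the lowest-scoring 25% of the knock-in list (15.4%, exact 95% interval 9.06 to 23.8), against 65 of all 812 regions called in the 3 genotypes (8%, 6.23 to 10.1). Within the same window of wild-type and knockout ranks, 64 regions had no knock-in peak, which is 38.1% of 168 (30.7 to 45.9). The 104 regions all passed the knock-in call, so their knock-in ranks say nothing of how far below the threshold the 64 may lie.

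The region with the highest combined rank lay at chr11:53905195-53905553. Its score was 101.97 in the wild type (percentile 75.9) and 262.12 in the knockout (percentile 94.1), and the nearest knock-in peak was 57906 bp away. Next was chr13:34759207-34759484, with percentiles of 73.1 and 93.5 and a knock-in peak 23493 bp away. The third, at chr5:144886780-144887283, stood at 80.2 and 86.2. These 3 regions ranked high in both lists. The fourth, at chr4:16086687-16087049, had the highest knockout score of all 232 regions, 354.16 (percentile 97.8), with a wild-type score of 93.19 (percentile 68).

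The other 6 of the leading 10 lay at chr13:51496634-51496979, chr2:102478198-102478627, chr17:13113877-13114305, chr8:49033018-49033408, chr4:119726164-119726562 and chr12:26590538-26590855. Their wild-type percentiles ran from 70.1 to 83 and their knockout percentiles from 76.6 to 93.2. The one on chromosome 8 had no knock-in peak within 1 Mb, at a gap of 1095758 bp. The one on chromosome 17 was 137461 bp from a knock-in peak with a knock-in percentile of 96.2.

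At the other end, the region with the lowest combined rank lay at chr5:98460392-98460689, with a wild-type score of 50.09 (percentile 0.4) and a knockout score of 57.55 (percentile 9.3). The next were at chr2:126340859-126341213, chr4:8844345-8844795, chr2:181282940-181283392 and chr19:4304289-4304573. Their wild-type percentiles ran from 4.5 to 7.3 and their knockout percentiles from 10.1 to 18.8. Their wild-type scores, from 50.09 to 52.48 over the 5 regions, were close to the lowest score of that list, 50.

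Some regions ranked very differently in the 2 lists that held them. The largest excess of knockout over wild-type percentile was at chr13:112611962-112612308, at 5.7 in the wild type and 86.8 in the knockout. It was followed by chr4:140142386-140142746, at 8.8 and 89.5, and chr11:70625954-70626315, at 11.7 and 92.1. These rank among the stronger knockout sites and the weaker wild-type sites. The reverse was seen at chr11:86530981-86531430, at percentile 65.8 in the wild type and 2.8 in the knockout, at chr7:121500002-121500442, at 58 and 20.6, and chr12:8934532-8934793, at 68.5 and 32.1. In 192 of the 232 regions the knockout percentile was the higher one (82.8%, exact 95% interval 77.3 to 87.4), and in 696 of the 812 called in all 3 genotypes (85.7%, 83.1 to 88). The 2332 regions of the knockout alone had a median knockout percentile of 33.6. Whether this accounts for the higher knockout percentiles of shared regions was not tested.

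The nearest knock-in peak was a median of 137.5 kb away, with a range of 1.0 to 3937.7 kb. Regions called in all 3 genotypes were a median of 156.6 kb from the nearest knock-in peak other than their own. A knock-in peak lay within 10 kb of 25 of the 232 regions (10.8%, exact 95% interval 7.1 to 15.5) and of 63 of the 812 (7.76%, 6.01 to 9.82). Within 100 kb these were 96 of 232 (41.4%, 35 to 48) and 306 of 812 (37.7%, 34.3 to 41.1). The intervals overlap, and the differences were not tested. The lower quartile of the distance was 31159.8 bp for the 232 regions and 46424.8 bp for the 812. No knock-in peak lay within 1 Mb of 19 of the 232 regions (8.19%, 5 to 12.5). Of the 812, 91 had none within 1 Mb other than their own (11.2%, 9.12 to 13.6), and these intervals overlap too.

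**Figure D4:**
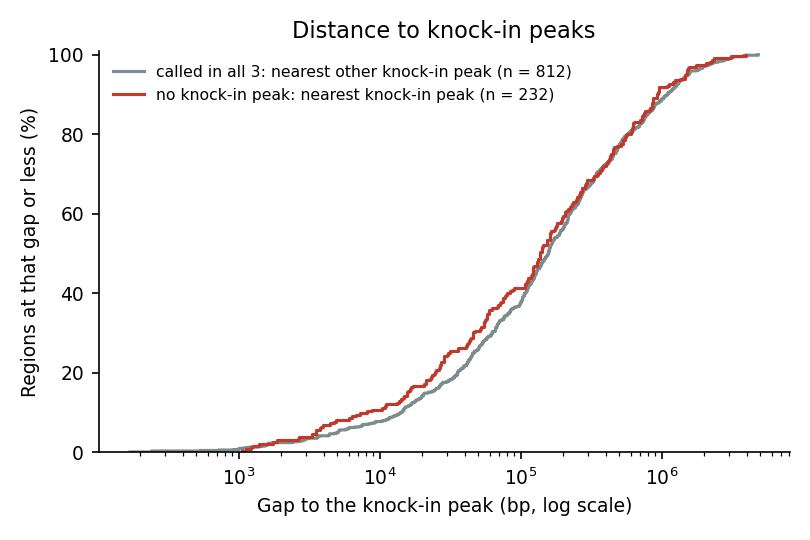
Percent of regions (y axis) whose gap to the nearest knock-in peak is at or below a distance in bp (x axis, log scale), for the 232 regions without a knock-in peak (red) and, counting only knock-in peaks outside the region, the 812 called in all 3 genotypes (grey). The medians are 137.5 and 156.6 kb, and the difference was not tested.

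The 5 regions nearest to a knock-in peak each lay beside a region called in all 3 genotypes. On chromosome 5, the region from 98445870 to 98446171 was 1048 bp from a knock-in peak with a score of 356.83 (percentile 99.5 of the knock-in list). The region from 98460392 to 98460689, described above as the lowest in combined rank, lay on the same chromosome, 1392 bp from another knock-in peak at percentile 88.2. The others were at chr5:102926255-102926630 (1126 bp), at chr15:5364529-5364801 (1215 bp) and chr4:8844345-8844795 (1254 bp). In these places the knock-in list held the neighbouring peak and lacked this one.

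By median, regions within 10 kb of a knock-in peak ranked lower than those with none within 1 Mb. The 25 within 10 kb of a knock-in peak had a median wild-type percentile of 16.3 (range 0.4 to 78.9), and the 19 with none within 1 Mb had 52.3 (0.8 to 71.9). In the knockout list the medians were 51.1 and 68.2. The ranges overlap widely, and this difference was seen in the data and not tested. The 5 most isolated regions lay 2204442 to 3937726 bp from a knock-in peak: at chr8:55079614-55079967, chr9:83005836-83006241, chr12:8934532-8934793, chr5:128101544-128101928 and chr2:112108151-112108358.

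The nearest knock-in peak belonged to a region called in all 3 genotypes for 91 of the 232 regions (39.2%), to one called in both mutants for 86 (37.1%) and to one called in the knock-in alone for 54 (23.3%). Of the 2062 regions with a knock-in peak, these classes made up 39.4%, 34.8% and 24.8%. Over all 232 regions the neighbours were thus a mixture much like the knock-in list as a whole. For the 25 regions within 10 kb of a knock-in peak, the numbers in these classes were 13, 8 and 4. This smaller group was not tested against the whole.

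The regions were spread over all 19 autosomes, from 3 on chromosome 18 to 22 on chromosome 2. Relative to the regions with wild-type and knockout peaks on the same chromosome, the share without a knock-in peak ran from 13% on chromosome 18 (3 of 23, exact 95% interval 2.78 to 33.6) to 30.6% on chromosome 8 (11 of 36, 16.3 to 48.1). The interval of every chromosome included the genome-wide share of 22.2%. No chromosome stood apart at these numbers.

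**Figure D5:**
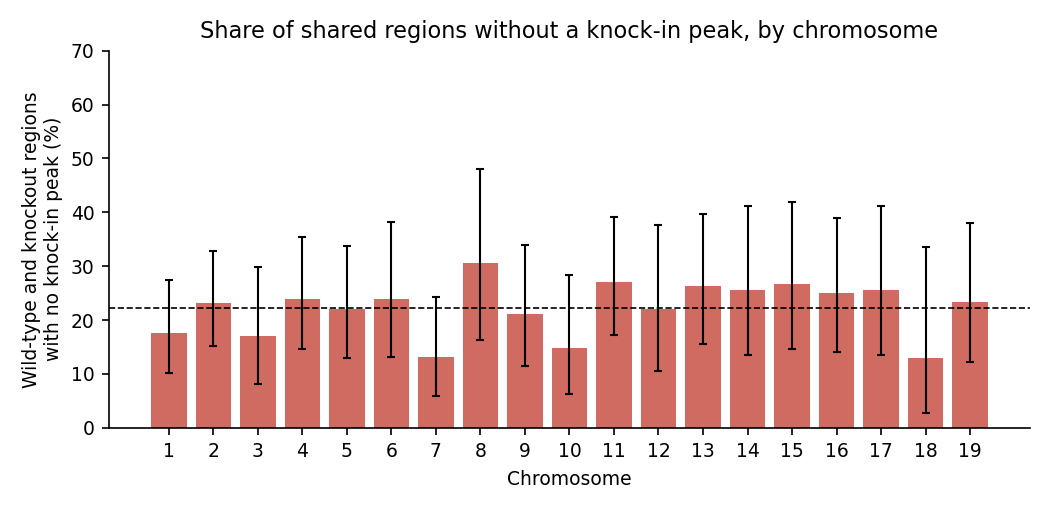
Percent of regions with wild-type and knockout peaks that had no knock-in peak (y axis), by chromosome (x axis). Bars show the share, error bars the exact 95% binomial interval and the dashed line the share over all autosomes, 22.2%, which lies within every interval.

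Few of the regions lay near each other. Another of the 232 regions was within 10 kb of 6 of them (2.59%, exact 95% interval 0.955 to 5.54), which formed 3 pairs. In the larger set called in all 3 genotypes, another of the 812 was within 10 kb of 30 (3.69%, 2.51 to 5.23). A larger set has more chances of a near neighbour, so these shares are not directly comparable. Neighbours are also counted together, which the intervals do not allow for. The grouping into pairs was chosen after the values were seen. On chromosome 14 the regions from 75579027 to 75579344 and from 75579439 to 75579795 were 94 bp apart. On chromosome 15 the regions from 84515976 to 84516315 and from 84522189 to 84522618 were 5873 bp apart, with wild-type percentiles of 60.4 and 55.4 and knockout percentiles of 85.3 and 82.7. This was a pair above percentile 50 in both lists, and the nearest knock-in peak was 1490405 bp away from the closer one. On chromosome 13 the regions from 54313700 to 54313915 and from 54318609 to 54318991 were 4693 bp apart; the first had the highest wild-type score of all 232 regions, 125.23 (percentile 85.1), with a knockout percentile of 56.4, and the second stood at 11.4 and 81.1.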

How the data were processed

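PU.1 ChIP-seq peaks of 3 genotypes, 1 library each, were used. Per the submitters' processing notes, the authors used Trim Galore, Bowtie and MACS with build mm9; the sources used here do not give versions, settings or the use of the input. Each deposited list gives chromosome, start, end, name and a score of undefined scale, called per sample. The authors' deposited score was used only to rank peaks within a list; ties share a percentile, and the most frequent score, 59.49, was held by 36 wild-type peaks. For display, 1 was added to each start. A region's percentile is that of its peak in the whole list.

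The rule for the regions, the classes compared and the alternatives were chosen with earlier results of these data known. Regions named were the extremes of combined percentile, percentile difference, width, distance to a knock-in peak and overlap. Intervals are exact (Clopper-Pearson) at 95%. No test was run. Joining was tested on simulated data. The tools were scipy 1.17.1, pandas 2.3.3, numpy 2.4.6 and matplotlib 3.10.9 under Python 3.11.15. The reference tables at hand are of GRCm38, so no region was given a gene or a sequence.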

Additional observations from a re-analysis of the deposited data

How the results depend on the processing

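The rule was varied by requiring a reciprocal overlap of 50% or an overlap of 100 bp, joining peaks up to 500 bp apart and including the sex chromosomes. These settings moved the number of regions from 232 to between 225 and 239. The share without a knock-in peak moved to between 22.1% and 22.5%. The 100 bp setting could remove none of the 232, whose smallest wild-type to knockout overlap was 102 bp. With the higher-scoring 50% of the wild-type and knockout lists against the whole knock-in list, 47 regions remained (9.02%), with median percentiles of 65.8 and 82.7 in the wild-type and knockout lists, a median width of 384 bp and a median of 271785 bp to the nearest knock-in peak. With the higher-scoring 50% of all 3 lists there were 110 regions (21.1%), with 66.4, 82.4, 386 bp and 459201 bp. Of these 110, 47 were among the 232, and the rest overlap a knock-in peak that this setting drops. The gap is measured here to the shortened knock-in list, so for a given region it can only stay the same or grow. The higher ranks follow from removing low-scoring peaks. For the widths, and for the distances to the whole knock-in list, the cause was not tested. With the knockout list held to the length of the knock-in list, the share was 17.7% and the median knockout percentile 71.9. No paired analysis was possible because there was 1 library per genotype, which also means that none could be left out in turn. Planned gene positions, gene lists and motifs need mm9 sequence or annotation and were not run. Unknown depth limits what an absent knock-in peak shows.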

Other observations

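On the sex chromosomes, which the rule leaves out, 7 further regions had a wild-type and a knockout peak and no knock-in peak, 6 on X and 1 on Y. The highest-ranked of them lay at chrX:110981369-110981767, with percentiles of 57.9 in the wild type and 80.7 in the knockout and the nearest knock-in peak 6535198 bp away. The region on Y, from 488848 to 489247, stood at 10.9 and 10.4. A pair on X, from 19865881 to 19866208 and from 19932338 to 19932796, stood at 11.7 and 18.1 in the wild type and at 25.6 and 10.8 in the knockout.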
